A study of Mus musculus with 24 samples.

Results

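The comparison described here was between Panc02 tumors treated with anti–PD-1 plus anti–CTLA-4 without a vaccine and tumors treated with isotype control antibodies, in CD8+ T cells and in macrophages. CD8+ T cells were barcodes with at least 1 UMI of *Cd3e*, at least 1 UMI of *Cd8a* or *Cd8b1*, and no UMI of *Cd4*. Macrophages were barcodes with at least 20 UMIs of *C1qa*, *C1qb*, and *C1qc* together per 10000. These rules gave 1781 CD8+ T cells and 3824 macrophages, or 5585 cells in either class, of the 12281 cells that passed the quality limits in 4 libraries. All 16 RNA libraries of the series held 57338 such cells, with 10259 CD8+ T cells and 14424 macrophages.

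Panc02 is a mouse pancreatic cancer line, and 3000000 cells were implanted under the skin of wild-type male C57BL/6 mice of 6–7 weeks. Treatment began on day 12, and tumors were harvested on day 38. These are the values of the labels, and a figure legend of the study gives an earlier day and fewer implanted cells. In the antibody group, 100 μg of anti–PD-1 was injected 2 times a week from day 12 and 100 μg of anti–CTLA-4 was injected on days 15 and 22, with PBS in place of the PancVAX peptide vaccine. The same figure legend gives day 19 for the second anti–CTLA-4 dose. The isotype group received rat IgG2a and polyclonal Syrian hamster IgG. The other libraries used for reference were of anti–PD-1 alone, anti–CTLA-4 alone, PancVAX with neither, PancVAX with either antibody, and PancVAX with both antibodies. The antibodies were at the same doses and days. PancVAX was given on days 12 and 19, at 50 μg in the labels and the same amount per peptide in the study's methods. Those methods list PancVAX with neither as PancVAX with isotype antibodies. They describe the vaccine as peptides mixed with AddaVax and a STING agonist. Tumors were pooled within a treatment, and each treatment gave 1 library of whole dissociated tumor and 1 of immune cells enriched on Percoll, which were also the sequencing batches. The number of mice in a pool and whether both preparations came from the same mice are not given in the sources used here. *P* values therefore measure the spread between libraries of pooled tumors and not between mice.

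PD-1 and CTLA-4 are inhibitory receptors of T cells. PD-1 dampens signaling from the T cell receptor when it binds PD-L1 or PD-L2 on other cells, and CTLA-4 competes with the costimulatory receptor CD28 for CD80 and CD86 on antigen-presenting cells. CD8+ T cells kill target cells and secrete IFN-γ, and C1q-expressing macrophages are a major phagocyte population of mouse tumors that can present antigen and express these ligands.

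The calls in CD8+ T cells turned on a pair of heat shock genes and on T cell receptor segments, and the sequences that belong to them are given first. *Hspa1a* (chr17:34969359-34972156) and *Hspa1b* (chr17:34956429-34959238) encode inducible forms of the chaperone HSP70 and are neighbors on mouse chromosome 17. Their promoters are shown because the genes moved together. They are the 250 bases before the start, minus strand, from RefSeq on GRCm38.p6, with capitals for the palindrome GAANNTTC, a core arrangement of the heat shock element.
Hspa1a, chr17:34972157-34972406: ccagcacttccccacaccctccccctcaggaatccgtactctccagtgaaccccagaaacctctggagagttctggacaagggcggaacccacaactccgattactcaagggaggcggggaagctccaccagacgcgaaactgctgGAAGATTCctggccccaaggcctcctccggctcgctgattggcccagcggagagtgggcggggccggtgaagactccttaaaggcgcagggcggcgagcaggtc
Hspa1b, chr17:34959239-34959488: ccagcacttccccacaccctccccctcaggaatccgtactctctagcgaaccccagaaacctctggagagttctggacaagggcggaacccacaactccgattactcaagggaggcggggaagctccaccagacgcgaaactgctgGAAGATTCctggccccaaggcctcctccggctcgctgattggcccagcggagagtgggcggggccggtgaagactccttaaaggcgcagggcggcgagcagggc
The windows were identical at 247 of 250 positions (98.8%), and each held 1 match, at position 147 of the window. The same letters occurred in 6.69% of 32851 mouse promoters of this length. The genes are near-identical copies, so how reads were split between them is uncertain, and their UMIs were also summed.

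The other calls with sequence behind them were the V segments *Trbv19* and *Trbv12-1*, which form part of the T cell receptor β chain. The junctions of their most frequent receptors are shown because each marks 1 clone, a group of cells with the same receptor. They are the CDR3 nucleotide sequences of CD8+ T cells in the Percoll libraries, with the first and last codon in capitals.
TRBV19, isotype control, 11 cells: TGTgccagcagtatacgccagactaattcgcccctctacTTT
TRBV19, isotype control, 3 cells: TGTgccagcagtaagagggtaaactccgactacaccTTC
TRBV12-1, both antibodies, 16 cells: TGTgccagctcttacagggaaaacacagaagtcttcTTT
TRBV12-1, both antibodies, 14 cells: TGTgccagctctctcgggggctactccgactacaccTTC
TRBV12-1, both antibodies, 9 cells: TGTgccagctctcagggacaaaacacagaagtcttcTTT
None of the 5 junctions was found with that V gene among the CD8+ T cells of the other treatment.

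The 4 libraries held 86932783–176233225 UMIs over 5743–11673 barcodes, and 31.2%–33.9% of barcodes passed. The CD8+ T cells numbered 388 in whole tumor and 719 in Percoll with both antibodies, and 417 and 257 with isotype, with medians of 4624–5569 UMIs. The macrophages numbered 1019 and 1088 against 1267 and 450, with medians of 3313–4719 UMIs. Markers that the class rules did not use were looked at apart from those they did: 7 T cell markers summed to 4079–4568 CPM (UMI counts scaled to a common library total) in the CD8+ T cells and 27.2–52.6 CPM in the macrophages, and 9 macrophage markers summed to 22190–25170 CPM in the macrophages. In the CD8+ T cells those 9 summed to 222 and 224 CPM with both antibodies and 497 and 226 CPM with isotype, the isotype whole-tumor library being the highest. Cells that met both rules numbered 2–10 per library. Seminal vesicle genes (*Svs*) were found in the antibody libraries, where 17 barcodes in whole tumor and 2 in Percoll had at least 1% of UMIs from them and were left out, against 0 in the isotype libraries. The median mitochondrial share of the CD8+ T cells was 2.52% and 2.06% with both antibodies and 3.76% and 2.14% with isotype. A mitochondrial limit of 5% was run as an alternative.

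The first question was whether these cells made up another share of the passing cells with both antibodies. CD8+ T cells were 13.7% of passing cells in whole tumor (95% interval 12.5%–15.0%) and 18.7% in Percoll with both antibodies, against 11.0% (9.98%–12.0%) and 14.3% with isotype. Macrophages were 36.0% and 28.3% against 33.3% and 25.1%. Within each preparation the antibody library was higher for both classes, by 2.75 and 4.35 percentage points for CD8+ T cells and by 2.71 and 3.18 points for macrophages. With 2 libraries a group there are only 6 ways to split them, too few for an exact permutation test to reach 0.05 (the smallest two-sided *P* is 0.33), so no test was made. At a mitochondrial limit of 5% the whole-tumor difference was 0.0038 points for CD8+ T cells and -0.22 points for macrophages, and the Percoll differences were 4.97 and 3.55 points. Without the upper limits of genes and UMIs a cell, the differences in whole tumor and Percoll were 1.46 and 2.37 points for CD8+ T cells and 0.321 and 1.21 points for macrophages.

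In CD8+ T cells, both antibodies went with higher *Hspa1a*, *Hspa1b*, and *Trbv12-1* and with lower *Trbv19*, *Trav3-3*, and *Rgcc*. These were the 6 genes called of 10460 tested, 0.0574% of the genes, 3 in each direction (0.0287% each way). A call needed an adjusted *P* below 0.05 by the quasi-likelihood test of edgeR with Benjamini-Hochberg adjustment and an absolute log2 fold change above 0.5. Of the same genes, 571 had an unadjusted *P* below 0.05, 2.8% of all genes being higher and 2.66% lower at that level. With no change at all, a share of 0.05 over both directions would be expected. DESeq2 called 12, among them all 6. The 6 genes and those of macrophages are shown by library in the plot of called genes.

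**Figure D1:**
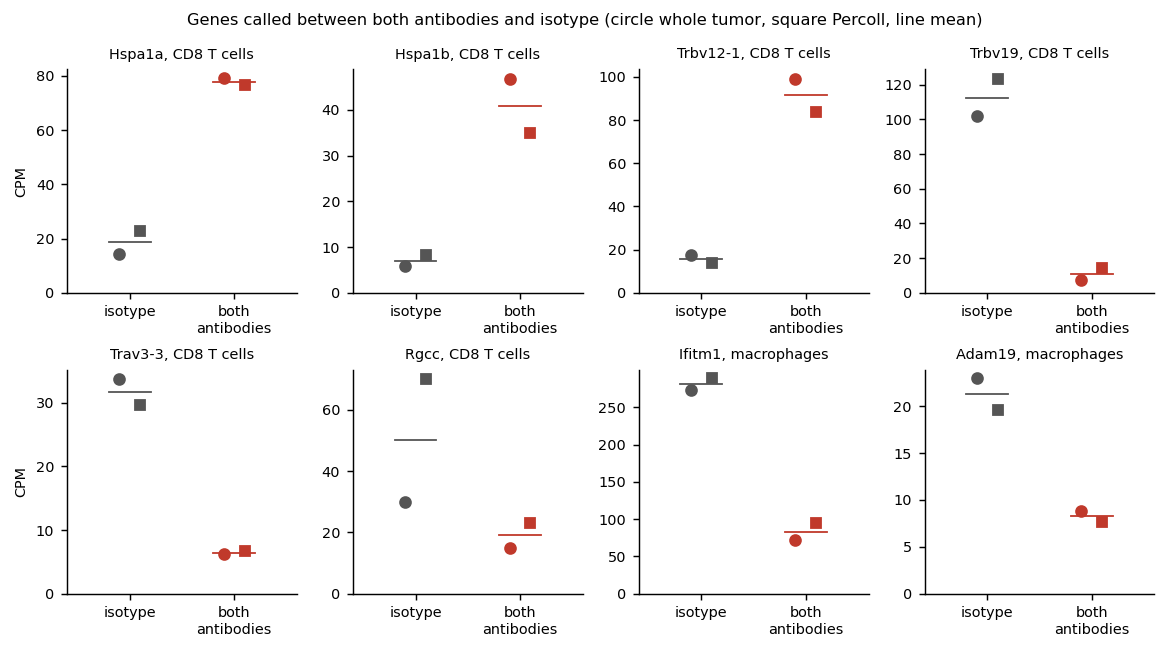
CPM (vertical axis, from 0) of the 8 genes called in CD8+ T cells or macrophages, with 1 point per library (circle, whole tumor; square, Percoll) and a line at the mean of 2 libraries, for isotype (gray) and both antibodies (red). Antibody and isotype libraries did not overlap for any of the 8 genes, for example 79.2 and 76.5 CPM against 14.4 and 22.7 CPM for *Hspa1a*. The genes were picked by a test on these same values. Of all genes tested, 16.3% lay apart higher and 15.1% lower in CD8+ T cells, and 14.8% and 15.1% in macrophages.

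*Hspa1a* stood at 79.2 CPM in whole tumor and 76.5 CPM in Percoll with both antibodies, from 154 and 272 UMIs. It stood at 14.4 and 22.7 CPM with isotype, from 30 and 33 UMIs. The antibody libraries agreed closely, and both lay above both isotype libraries, as for 16.3% of all genes tested. The log2 fold change was 2.09 (SE 0.19, edgeR adjusted *P* = 7.28e-05).

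*Hspa1b* gave 46.8 and 34.9 CPM against 5.78 and 8.25 CPM, a log2 fold change of 2.53 (SE 0.33, edgeR adjusted *P* = 0.00329). The call of *Hspa1b* was lost without the isotype whole-tumor library (log2 fold change 2.34, edgeR adjusted *P* = 0.21) and without the isotype Percoll library (2.71, edgeR adjusted *P* = 0.062). With the UMIs of both copies summed as 1 gene, a fit added after the data were seen, the sums were 126 and 111 CPM against 20.2 and 30.9 CPM. The log2 fold change of the sum was 2.24 (SE 0.21, edgeR adjusted *P* = 7.28e-05). In that fit 4 genes were called, 2 higher and 2 lower. The isotype libraries were the lowest of all 16 for *Hspa1a*, since the other 14 stood at 37.9–149 CPM. The difference was therefore not particular to both antibodies: against the same isotype libraries, *Hspa1a* had a log2 fold change of 1.93 with anti–PD-1 alone and 2.55 with anti–CTLA-4 alone, and these comparisons share their control libraries. Without the upper limits of 3000 genes and 10000 UMIs a cell, the log2 fold change of *Hspa1a* was 1.18 and its call was lost (edgeR adjusted *P* = 0.12), as was that of *Hspa1b* at 1.03 (edgeR adjusted *P* = 0.77).

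**Figure D2:**
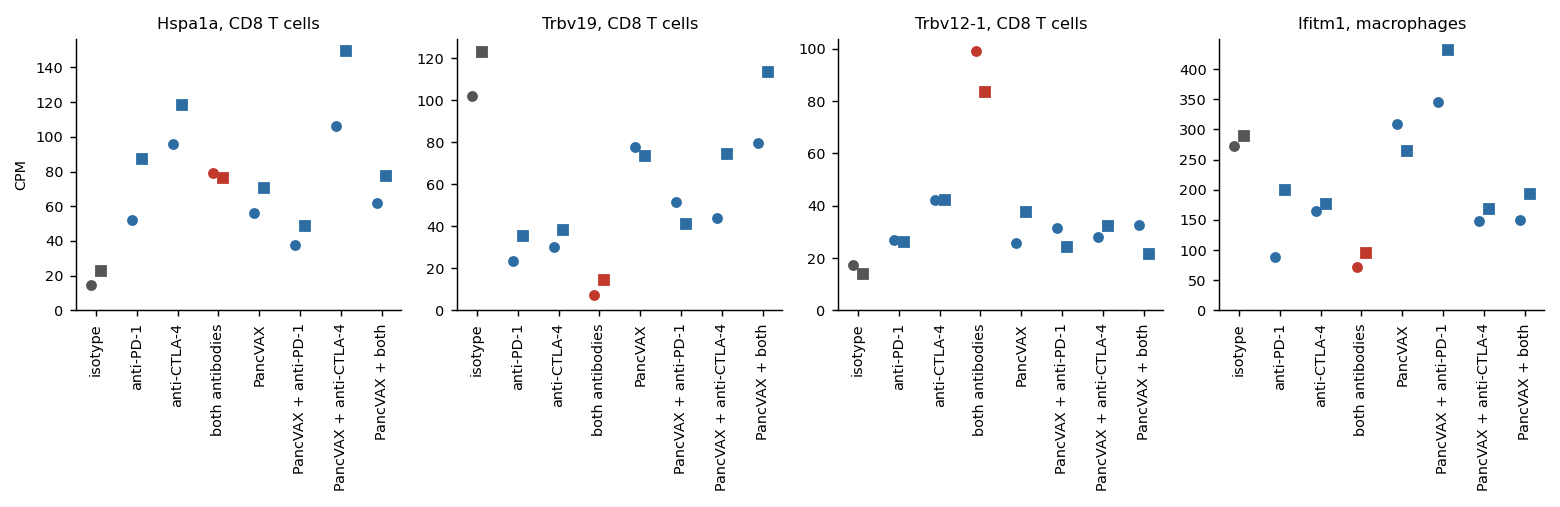
CPM (vertical axes, from 0) of *Hspa1a*, *Trbv19*, and *Trbv12-1* in CD8+ T cells and of *Ifitm1* in macrophages over the 8 treatments (horizontal axis), with 1 point per library (circle, whole tumor; square, Percoll; gray, isotype; red, both antibodies; blue, other treatments). Isotype was lowest for *Hspa1a* at 14.4 and 22.7 CPM, and both antibodies were lowest for *Trbv19* at 7.20 and 14.4 CPM and highest for *Trbv12-1* at 99.3 and 83.6 CPM.

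*Hspa1a* and *Hspa1b* also belonged to a list of 16 genes that respond to tissue dissociation, such as immediate early and heat shock genes, and they were the only members called. The list had 12 members higher and 4 lower, with a median log2 fold change of 0.24 beside 0.01 over all genes, of which 51.2% were higher. The immediate early gene *Jun* stood at 236 and 482 CPM against 125 and 308 CPM, a log2 fold change of 0.77 with an edgeR adjusted *P* of 0.35, which turned to -0.12 without upper cell limits. Here the preparations differed more than the treatments, since Percoll was higher than whole tumor on both sides. In macrophages the same list had 6 members higher and 10 lower, with a median of -0.06, and *Hspa1a* stood at 104 and 168 CPM against 63.4 and 138 CPM.

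The T cell receptor segments were the remaining calls but 1. *Trbv12-1* stood at 99.3 and 83.6 CPM with both antibodies and 17.3 and 13.8 CPM with isotype, a log2 fold change of 2.53 (SE 0.23, edgeR adjusted *P* = 7.28e-05). *Trbv19* stood at 7.20 and 14.4 CPM against 102 and 123 CPM, a log2 fold change of -3.32 (SE 0.26, edgeR adjusted *P* = 2.89e-05). Both antibodies gave the highest levels of all 16 libraries for the former and the lowest for the latter, the other 14 lying at 13.8–42.1 CPM and 23.5–123 CPM. The isotype Percoll library stood at the low end of the first range and at the high end of the second. *Trav3-3*, a segment of the α chain, stood at 6.17 and 6.75 CPM against 33.7 and 29.6 CPM, a log2 fold change of -2.28 (SE 0.25, edgeR adjusted *P* = 0.000451). These 3 calls held under every alternative reported, but each alternative used the same pooled tumors. Whether both preparations came from the same mice is not given, so none of them measured the spread of clones between mice. Against the same isotype libraries, which the comparisons share, *Trbv19* had log2 fold changes of -1.92 with anti–PD-1 alone (edgeR adjusted *P* = 0.00201) and -1.71 with anti–CTLA-4 alone (edgeR adjusted *P* = 0.00448). *Trbv12-1* had 0.76 (edgeR adjusted *P* = 0.65) and 1.43 (edgeR adjusted *P* = 0.043), and *Trav3-3* had -0.16 (edgeR adjusted *P* = 0.97) and -2.26 (edgeR adjusted *P* = 0.000819). No difference between both antibodies and either alone was tested.

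The receptor contigs, read from the same Percoll cells, showed which clones carried these segments. TRBV19 was found in 23 of 234 isotype CD8+ T cells with a β chain (9.83%, 95% interval 6.33%–14.4%) and in 8 of 646 with both antibodies (1.24%, 0.536%–2.43%). The 23 isotype cells held 9 junctions, and the first junction printed above made up 11 of them, 47.8%. The 8 cells of the antibody library held 8 different junctions. TRBV12-1 was found in 57 of 646 cells with both antibodies (8.82%, 6.75%–11.3%) and in 8 of 234 isotype cells (3.42%, 1.49%–6.63%). The 57 cells held 13 junctions, and the 3 printed above accounted for 16, 14, and 9 of them. TRAV3-3 was in 5 of 207 isotype cells with an α chain, 4 of them with 1 junction, and in 0 of 545 antibody cells, where 3 counts of the total would be a share of 0.55% and the exact 95% interval reaches 0.675%. Intervals and these limits cover counting error only, and the contigs have no replicate. They take cells as independent, which cells of 1 clone are not, so they understate the spread.

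Clones were mostly private to a library. Of 212 clones with both antibodies and 111 with isotype, 2 were shared, and these held 53 and 8 cells. The largest clone held 52 of 637 cells with both antibodies (8.16%) and 14 of 226 with isotype (6.19%). Cells in clones of 2 or more made up 76.6% of CD8+ T cells with 1 β chain with both antibodies (73.1%–79.8%) and 64.6% with isotype (58.0%–70.8%). More cells make repeated clones easier to find, however, and with both libraries cut to 226 cells the expected shares were 68.1% and 64.6%. The difference thus went from 12.0 to 3.54 percentage points, and it has no test with 1 library a side. For comparison, the shares at 226 cells were 65.4% with anti–CTLA-4 alone and 62.6% with anti–PD-1 alone.

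**Figure D3:**
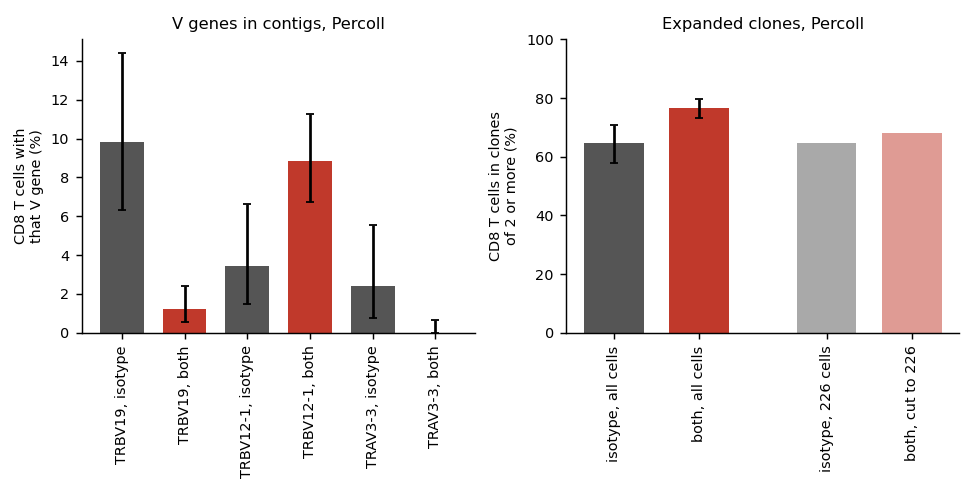
Left, share of CD8+ T cells with TRBV19, TRBV12-1, or TRAV3-3 in the Percoll contigs. Right, share of CD8+ T cells in clones of 2 or more, for all cells and at 226 cells (pale bars, expected values with no interval). Vertical axes are percent from 0, error bars are exact binomial 95% intervals that take cells as independent, gray is isotype, and red is both antibodies. TRBV19 stood at 9.83% with isotype and 1.24% with both antibodies, and TRBV12-1 at 3.42% and 8.82%.

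*Rgcc*, a regulator of the cell cycle, was the last call. It stood at 14.9 and 23.1 CPM with both antibodies and 29.9 and 70.1 CPM with isotype, a log2 fold change of -1.33 (SE 0.22, edgeR adjusted *P* = 0.044). The isotype Percoll library was well above the other 3, and without it the log2 fold change was -0.92 (edgeR adjusted *P* = 0.61). The call was also lost without either antibody library (log2 fold changes -1.33 and -1.37, edgeR adjusted *P* = 0.23 and 0.71), without upper cell limits (log2 fold change -0.41, edgeR adjusted *P* = 0.96), at 5% mitochondrial UMIs (-1.28, edgeR adjusted *P* = 0.21), with no hemoglobin filter (-1.32, edgeR adjusted *P* = 0.052), with at least 2 UMIs of *Cd8a* or *Cd8b1* (-1.25, edgeR adjusted *P* = 0.11), and without the replicate block by preparation (-1.31, edgeR adjusted *P* = 1.00).

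Genes of naive and memory T cells leaned lower with both antibodies, but no member was called. Of 16 members 12 were lower and 4 higher, with a median log2 fold change of -0.35 beside 0.01 over all genes. At an unadjusted *P* below 0.05, 6 members were lower and 0 higher, where 2.66% of all genes were lower and 2.8% higher at that level. *Lef1*, a transcription factor of naive T cells, stood at 23.7 and 19.98 CPM against 38.0 and 27.5 CPM, a log2 fold change of -0.59 (SE 0.21, edgeR adjusted *P* = 0.78). *Igfbp4* stood at 11.8 and 11.3 CPM against 24.6 and 20.6 CPM, a log2 fold change of -0.91 (edgeR adjusted *P* = 0.49). In 6 of the 16 members both antibody libraries lay below both isotype libraries, where 15.1% of all genes did. In these summed counts, fewer cells that express these genes and less RNA of them per cell cannot be told apart.

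The antibody targets themselves were not called. *Pdcd1*, which encodes PD-1, stood at 529 and 471 CPM against 385 and 437 CPM, a log2 fold change of 0.28 (SE 0.19, edgeR adjusted *P* = 0.94). *Ctla4* stood at 146 and 181 CPM against 142 and 197 CPM, a log2 fold change of -0.04 (SE 0.16, edgeR adjusted *P* = 1.00). Both antibody libraries lay above both isotype libraries for *Pdcd1*, as for 16.3% of all genes tested, while the 4 values of *Ctla4* overlapped. Of 11 inhibitory receptors 4 were higher and 7 lower, with a median of -0.02. *Lag3* stood at 365 and 359 CPM against 387 and 452 CPM, and *Btla* was near the detection limit at 3.60 and 3.10 CPM against 0.963 and 2.06 CPM. Of 11 exhaustion factors tested 7 were higher and 4 lower (median 0.01), and *Tox* stood at 224 and 230 CPM against 187 and 208 CPM.

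Effector genes were mixed. *Gzma*, which encodes granzyme A, stood at 1522 and 2047 CPM against 3422 and 2960 CPM, a log2 fold change of -0.87 (SE 0.22, edgeR adjusted *P* = 0.37). The cytotoxicity list as a whole had 9 members higher and 5 lower of 14 (median 0.08), with 0 called. *Serpinb6b*, an inhibitor of serine proteases, stood at 188 and 181 CPM against 222 and 258 CPM. The chemokine *Ccl5* stood at 4858 and 4886 CPM against 2757 and 3742 CPM, a log2 fold change of 0.59 (SE 0.13, edgeR adjusted *P* = 0.20). *Ccl4* stood at 905 and 1065 CPM against 704 and 579 CPM. Both chemokines were higher in both antibody libraries, as were 16.3% of all genes tested. The list of cytokines and chemokines had 6 of 12 members higher (median -0.03). DESeq2 called *Ccl5* (log2 fold change 0.58, adjusted *P* = 0.024).

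A chemokine receptor and a subunit of the type I interferon receptor were higher with both antibodies but missed the threshold. *Ccr2*, a receptor for CCL2, stood at 15.4 and 11.3 CPM against 6.74 and 2.75 CPM, a log2 fold change of 1.41 (SE 0.30, edgeR adjusted *P* = 0.20). The isotype Percoll value rested on 4 UMIs, and the log2 fold change was 1.14 without that library, 2.05 without the isotype whole-tumor library, and 0.10 without upper cell limits. *Ifnar2* stood at 54.0 and 58.2 CPM against 36.1 and 36.4 CPM, a log2 fold change of 0.64 (SE 0.13, edgeR adjusted *P* = 0.14). Both were higher in both antibody libraries than in both isotype libraries, as were 16.3% of all genes tested. The homing receptors as a list were 6 higher and 7 lower (median -0.01), and the cytokine receptors were 5 higher and 13 lower (median -0.10), with *Il2ra*, the high-affinity IL-2 receptor chain, at 26.7 and 29.5 CPM against 44.8 and 37.1 CPM, a direction that turned without upper cell limits.

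Of the other CD8+ T cell lists none had a member called. *Cd69*, an early activation marker, stood at 145 and 432 CPM against 79.0 and 301 CPM in a list of 16 activation genes with 10 higher (median 0.09). Interferon-stimulated genes were 8 higher and 18 lower of 26 tested (median -0.14), with *Ifit3* at 12.3 and 11.3 CPM against 18.3 and 17.2 CPM (log2 fold change -0.60, and 0.84 without upper cell limits) and *Rtp4* at 27.8 and 23.4 CPM against 39.5 and 32.3 CPM. Proliferation genes were 13 higher of 18 (median 0.13), with the topoisomerase *Top2a* at 138 and 118 CPM against 124 and 79.1 CPM and the kinase *Cdk1* at 32.4 and 25.9 CPM against 26.5 and 14.4 CPM. T cell receptor signaling genes were 11 higher of 15 (median 0.08), a list that includes *Cd3e*, which the CD8+ T cell rule used. Among the higher were *Cd6* at 109 and 110 CPM against 80.4 and 94.2 CPM and *Cd5* at 60.7 and 77.9 CPM against 52.5 and 54.3 CPM. Costimulatory receptors were 5 higher of 10 (median 0.04), with *Cd7* at 318 and 355 CPM against 233 and 235 CPM and *Icos* at 86.4 and 86.4 CPM against 75.1 and 64.0 CPM. Glycolysis and hypoxia genes were 8 higher of 15 (median 0.05), with *Hif1a* at 179 and 172 CPM against 146 and 157 CPM and *Pkm* at 427 and 389 CPM against 427 and 473 CPM. Mitochondrially encoded genes were 11 lower of 13 (median -0.22), with *mt-Nd4l* at 1305 and 1093 CPM against 2411 and 1411 CPM and *mt-Atp8* at 522 and 510 CPM against 1204 and 926 CPM, beside the higher mitochondrial share of the isotype whole-tumor cells given above. Within preparations, several of these medians differed in sign. In whole tumor and Percoll the median log2 ratio was -0.09 and 0.58 for proliferation, 0.28 and -0.11 for activation, 0.14 and -0.29 for cytotoxicity, 0.54 and -0.28 for cytokines and chemokines, and -0.49 and 0.03 for mitochondrially encoded genes. It was -0.38 and -0.16 for naive and memory genes, which were lower in both.

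**Figure D4:**
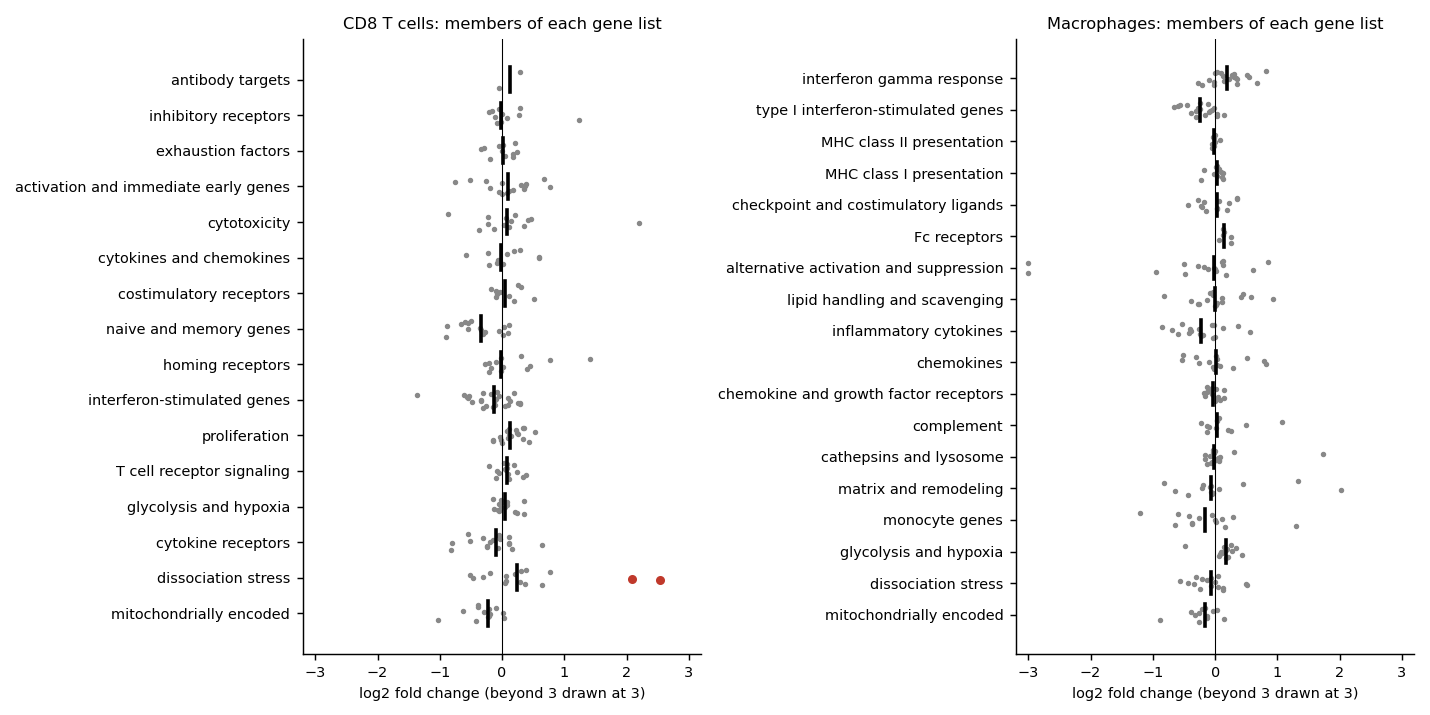
Log2 fold change, both antibodies minus isotype (horizontal axis), of the tested members of each gene list (1 point each) in CD8+ T cells (left) and macrophages (right), with a black bar at the list's median and red points for called genes. Values beyond 3 are drawn at 3. *Hspa1a* and *Hspa1b* at 2.09 and 2.53 are the only called members, and the medians lie between -0.35 and 0.24.

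In macrophages, both antibodies went with lower *Ifitm1* and *Adam19*, and these were the 2 genes called of 11239 tested (0.0178%), with 0 called higher. At an unadjusted *P* below 0.05, 214 were higher (1.9%) and 252, these included, were lower (2.24%). A share of 0.05 over both directions would be expected with no change at all. DESeq2 called 4, 3 of them higher and *Ifitm1* but not *Adam19*. *Ifitm1*, an interferon-induced transmembrane protein that restricts virus entry (chr7:140967429-140969827), stood at 71.8 and 94.8 CPM with both antibodies and 273 and 289 CPM with isotype. The groups did not overlap, as for 15.1% of all genes in this direction, and the log2 fold change was -1.77 (SE 0.23, edgeR adjusted *P* = 0.025). *Adam19*, a membrane metalloprotease, was chosen after its values were seen, since it lay below the level set for naming. It stood at 8.83 and 7.65 CPM against 23.1 and 19.6 CPM, a log2 fold change of -1.37 (SE 0.19, edgeR adjusted *P* = 0.042). Both calls were lost at 5% mitochondrial UMIs (*Ifitm1* -1.72, *Adam19* -1.35, edgeR adjusted *P* = 0.063 for each), when any 1 of the 4 libraries was left out, with *Ifitm1* at log2 fold changes of -1.65 to -1.87 and *Adam19* at -1.36 to -1.37, and without the replicate block by preparation, where *Ifitm1* was at -1.75 (edgeR adjusted *P* = 0.21). Over all treatments *Ifitm1* ranged from 71.8 to 431 CPM, and the anti–PD-1 whole-tumor library, at 89.3 CPM, lay between the antibody libraries.

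**Figure D5:**
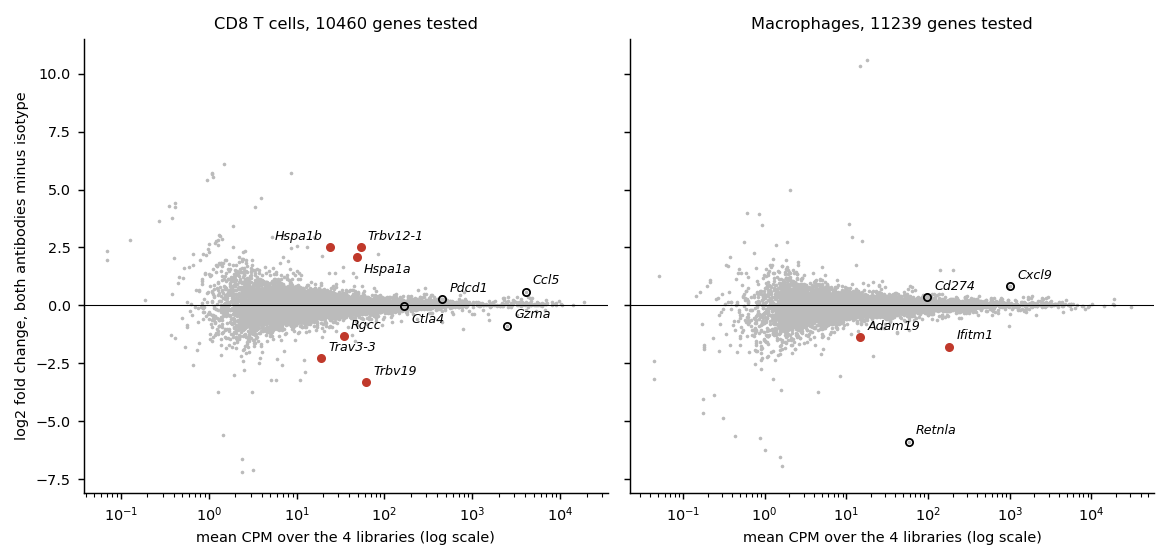
Log2 fold change, both antibodies minus isotype (vertical axis), against mean CPM over the 4 libraries (horizontal axis, log scale) for 10460 genes in CD8+ T cells (left) and 11239 in macrophages (right). Red points are called genes, and open circles are named genes that were not called, such as *Retnla* at -5.87 and *Cxcl9* at 0.82.

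Genes that respond to IFN-γ leaned higher, and those that respond to type I interferon leaned lower, with no member of either list called. Of 22 tested members of the first list 16 were higher, with a median log2 fold change of 0.19 beside -0.01 over all genes. *Cxcl9*, a chemokine that attracts CXCR3+ T cells, stood at 1176 and 1406 CPM against 724 and 736 CPM, a log2 fold change of 0.82 (SE 0.16, edgeR adjusted *P* = 0.23). *Gbp2*, a guanylate-binding protein, stood at 167 and 159 CPM against 121 and 106 CPM, a log2 fold change of 0.51 (SE 0.13, edgeR adjusted *P* = 0.75). In 7 of the 22 both antibody libraries lay above both isotype libraries, and 14.8% of all genes did. DESeq2 called *Cxcl9* (log2 fold change 0.82, adjusted *P* = 0.0011).

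Of 19 type I interferon-stimulated genes 3 were higher and 16 lower, with a median of -0.24. *Ifit2* stood at 27.4 and 25.2 CPM against 38.2 and 40.1 CPM, a log2 fold change of -0.56 (SE 0.18, edgeR adjusted *P* = 1.00). *Ifit3* stood at 25.8 and 24.2 CPM against 35.9 and 38.7 CPM. In 7 of the 19 both antibody libraries lay below both isotype libraries, and 15.1% of all genes did. Within preparations the median log2 ratio of the IFN-γ list was 0.24 in whole tumor and 0.25 in Percoll, and that of the type I list was -0.16 and -0.26. No difference between the lists was tested.

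The ligands of the antibody targets were not called. *Cd274*, which encodes PD-L1, stood at 87.6 and 131 CPM against 73.4 and 97.9 CPM (log2 fold change 0.36, SE 0.20), and *Pdcd1lg2*, which encodes PD-L2, stood at 13.8 and 19.3 CPM against 12.3 and 13.8 CPM. *Cd80* stood at 22.2 and 26.8 CPM against 26.6 and 33.4 CPM, and *Cd86* stood at 90.7 and 123 CPM against 93.6 and 111 CPM. The values of the groups overlapped for all 4, and *Cd86* turned from a log2 fold change of 0.06 to -0.0088 at 5% mitochondrial UMIs. Checkpoint and costimulatory ligands were 7 higher of 13 (median 0.03), with *Lgals9* at 169 and 167 CPM against 189 and 206 CPM. Fc receptors, which bind antibody constant regions, were higher for 6 of 6 but by a median of 0.13, with *Fcgr4* at 803 and 959 CPM against 672 and 799 CPM and *Fcgrt* at 244 and 232 CPM against 198 and 203 CPM.

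Antigen presentation genes were close to level. MHC class II genes were 2 higher and 6 lower, all between -0.05 and 0.08, with *H2-DMa* at 797 and 947 CPM against 739 and 913 CPM and the protease *Ctss* at 3712 and 3949 CPM against 3648 and 4279 CPM. MHC class I genes were 8 higher of 11 (median 0.04), with *H2-T23* at 171 and 244 CPM against 188 and 284 CPM and the regulator *Nlrc5* at 20.045 and 24.0 CPM against 24.1 and 28.2 CPM. Cathepsins and lysosomal genes were 6 higher of 18 (median -0.02), with *Ctsd* at 724 and 710 CPM against 563 and 596 CPM and *Cd63*, which was lower, at 965 and 1055 CPM against 1001 and 1269 CPM.

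Chemokines were 8 higher of 15 (median 0.01), with *Ccl8* at 1103 and 1272 CPM against 720 and 671 CPM, a log2 fold change of 0.79 (SE 0.17, edgeR adjusted *P* = 0.45). Inflammatory cytokine genes were 3 higher and 15 lower of 18 (median -0.23), with the inflammasome component *Nlrp3* at 75.4 and 102 CPM against 106 and 165 CPM and *Il1a* at 43.9 and 69.6 CPM against 60.2 and 108 CPM. Complement genes were 8 higher of 12 (median 0.03), a list that includes *C1qa*, *C1qb*, and *C1qc*, which the macrophage rule used. *C3* stood at 27.7 and 46.3 CPM against 19.2 and 17.2 CPM and *C4b* at 48.9 and 42.7 CPM against 42.2 and 23.9 CPM. Fibroblasts also express both genes, and 5 fibroblast markers in the macrophages summed to 145 and 13.2 CPM against 35.7 and 7.37 CPM, whose part in these values was not tested. Without the antibody Percoll library the log2 fold change of *C3* went from 1.07 to 0.45. Glycolysis and hypoxia genes were 14 higher of 15 (median 0.17), with *Tpi1* at 327 and 362 CPM against 244 and 266 CPM and *Pgk1* at 321 and 322 CPM against 254 and 278 CPM. Lipid handling genes were 8 higher of 17 (median -0.01), with *Fabp5* at 439 and 529 CPM against 297 and 436 CPM and *Lpl* at 65.1 and 56.4 CPM against 39.8 and 50.6 CPM.

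The largest difference in macrophages among listed genes was not called, and its levels differed widely between libraries. *Retnla*, a marker of alternative activation, stood at 3.58 and 0.403 CPM with both antibodies, from 15 and 2 UMIs, and at 85.0 and 143 CPM with isotype, from 483 and 300 UMIs. The log2 fold change was -5.87 (SE 1.47, edgeR adjusted *P* = 0.73), and it was -8.20 without the antibody whole-tumor library, -4.71 without the antibody Percoll library, and -2.14 without upper cell limits. Over the other treatments *Retnla* ranged from 0.00 CPM in the Percoll library of PancVAX plus anti–PD-1 to 339 CPM in that of PancVAX plus both antibodies. *Lyve1*, a marker of resident perivascular macrophages, stood at 0.955 and 0.201 CPM against 15.7 and 0.955 CPM, the isotype whole-tumor library being well above the others. The list of alternative activation had 7 of 17 members higher (median -0.01). Monocyte genes were 5 higher of 14 (median -0.16), with *Ly6c2* at 23.4 and 24.8 CPM against 34.0 and 86.9 CPM and *F10* at 6.20 and 9.26 CPM against 3.34 and 2.87 CPM. The log2 fold change of *Ly6c2* went from -1.21 to -0.58 without the isotype Percoll library and to -0.43 without upper cell limits. That of *F10* went from 1.30 to 0.40 with C1q at 50 per 10000. The 6 neutrophil markers together stood at 544 and 691 CPM against 470 and 103 CPM in the macrophages, and their part in these values was not tested.

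Of the remaining macrophage lists, matrix genes were 4 higher of 14 (median -0.07), with *Plaur*, the urokinase receptor, at 86.9 and 143 CPM against 115 and 200 CPM and the collagenase *Mmp8* at 3.34 and 3.82 CPM against 1.41 and 1.43 CPM. Receptors for chemokines and growth factors were 6 higher of 15 (median -0.04), with *Csf2rb* at 121 and 116 CPM against 137 and 132 CPM and *Ifnar1* at 66.1 and 73.7 CPM against 81.0 and 76.4 CPM. Stress genes included *Ier3* at 242 and 316 CPM against 301 and 412 CPM. Mitochondrially encoded genes were 2 higher of 13 (median -0.17), with *mt-Nd4l* at 1775 and 1810 CPM against 2777 and 1992 CPM and *mt-Nd6* at 53.5 and 61.8 CPM against 71.1 and 72.1 CPM. Their median log2 ratio was -0.32 in whole tumor and 0.0036 in Percoll. The median mitochondrial share of the macrophages was 3.30% and 2.90% with both antibodies and 4.86% and 2.82% with isotype.

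The last question was whether the change with both antibodies was the same in tumors that also received PancVAX. In CD8+ T cells the 2 changes differed for 12 of 10460 genes (0.115%), 5 with a higher (0.0478%) and 7 with a lower (0.0669%) change in PancVAX tumors, by the interaction term of the same edgeR fit. Genes already called between both antibodies and isotype enter this term with the same libraries, so their differences are not separate evidence. *Trbv19* stood at 77.7 and 73.4 CPM with PancVAX and 79.5 and 113 CPM with both antibodies added, a log2 fold change of 0.34. Its changes differed by 3.66 (SE 0.33, edgeR adjusted *P* = 0.000194). *Trbv12-1* stood at 25.6 and 37.5 CPM against 32.5 and 21.6 CPM, and its changes differed by -2.80 (SE 0.32, edgeR adjusted *P* = 0.00193).

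*Hspa1a* stood at 56.1 and 70.7 CPM with PancVAX and 61.7 and 77.3 CPM with both antibodies added, a log2 fold change of 0.13. The difference of changes was -1.95 (SE 0.25, edgeR adjusted *P* = 0.00355), with the isotype libraries as the low group. Without upper cell limits it was -1.13 (edgeR adjusted *P* = 0.071). *Hspa1b* stood at 25.1 and 34.0 CPM against 33.9 and 33.2 CPM, and its changes differed by -2.36 (SE 0.42, edgeR adjusted *P* = 0.046), or by -1.13 without upper cell limits (edgeR adjusted *P* = 0.22). *Rgcc* stood at 61.5 and 95.4 CPM with PancVAX and 100 and 109 CPM with both antibodies added, and its changes differed by 1.78 (SE 0.28, edgeR adjusted *P* = 0.023), or by 1.03 without upper cell limits (edgeR adjusted *P* = 0.093). *Nr4a3*, a transcription factor induced by T cell receptor signaling, stood at 64.3 and 92.3 CPM against 66.0 and 131 CPM without the vaccine, a log2 fold change of -0.30. With PancVAX, where 0.21% of genes were called when both antibodies were added, it rose from 48.9 and 72.6 CPM to 98.0 and 141 CPM, a log2 fold change of 0.98 (edgeR adjusted *P* = 0.00685). The changes differed by 1.27 (SE 0.19, edgeR adjusted *P* = 0.016). Of 19 alternatives, the difference lost its call in 10 for *Hspa1b*, 9 for *Nr4a3*, 8 for *Rgcc*, 3 for *Hspa1a*, and 0 for *Trbv19* and *Trbv12-1*. With 1 library left out the adjusted *P* of edgeR reached 0.19 for *Nr4a3* (without PancVAX Percoll), 0.21 for *Rgcc* (without isotype Percoll), 0.052 for *Hspa1a*, and 0.34 for *Hspa1b* (both without isotype whole tumor). At 5% mitochondrial UMIs the difference was 1.23 for *Nr4a3* (edgeR adjusted *P* = 0.095), 1.85 for *Rgcc* (edgeR adjusted *P* = 0.070), and -2.42 for *Hspa1b* (edgeR adjusted *P* = 0.054).

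*Gzmc*, a granzyme and the 1 member of the cytotoxicity list called here, was chosen after its values were seen. It stood at 324 and 254 CPM against 263 and 290 CPM without the vaccine, a log2 fold change of 0.06. With PancVAX it fell from 75.4 and 130 CPM to 24.8 and 27.3 CPM when both antibodies were added, a log2 fold change of -1.98 (edgeR adjusted *P* = 0.00685). The changes differed by -2.04 (SE 0.32, edgeR adjusted *P* = 0.023), and this call was lost in 8 of the 19 alternatives. The difference was -1.89 at 5% mitochondrial UMIs (edgeR adjusted *P* = 0.16) and -5.11 without upper cell limits (edgeR adjusted *P* = 0.0012). Without the replicate block by preparation 2 of these differences were called. In macrophages 0 genes were called by edgeR, with 736 at an unadjusted *P* below 0.05 and 16 called by DESeq2.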

How the data were processed

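The authors aligned reads and counted UMIs with Cell Ranger 4.0.0 on mm10, per the labels, and deposited raw UMI counts per gene and barcode. Receptor contigs were deposited for Percoll only. Cells with 200–3000 genes, 1000–10000 UMIs, under 10% mitochondrial UMIs, no hemoglobin UMI, and under 1% *Svs* UMIs were kept. No doublet caller was run, and cells that met both class rules were left out as an alternative. UMIs were summed by class and library, and all 16 libraries were fitted with edgeR 4.0.16 in R 4.3.3 (TMM, filterByExpr, quasi-likelihood test, two-sided, Benjamini-Hochberg over all genes tested), with treatment and preparation as terms. Each SE was derived from this test, as the absolute log2 fold change divided by the square root of the F statistic. Cells were not used as replicates. The preparation in the labels pairs the libraries. Over all genes tested, whole tumor minus Percoll differences correlated between the 2 treatments at 0.12 in CD8+ T cells and 0.23 in macrophages. Over genes of at least 20 CPM they correlated at 0.30 and 0.46. CPM values are scaled by TMM library sizes, except those of marker sums, which are scaled by total UMIs. Clones share a TRB V gene and CDR3 nucleotide sequence.

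In simulations of 200 genes changed 2-fold in this comparison, edgeR recovered 48.5% in CD8+ T cells (10460 genes) and 56.5% in macrophages (11239 genes). Alternatives were DESeq2 1.42.0, RLE size factors, no low-count filter, only the libraries compared, no replicate block, each library left out, and other cell limits. Named genes were the antibody targets and ligands, called genes with a mean of at least 20 CPM (up to 10 each way, receptor segments as a group), for each list its called members (up to 4) or the 2 with the smallest *P*, and up to 5 genes of the interaction. The members and lists were chosen with earlier results of these data known. Any 2 of the 4 libraries compared shared 6–22 barcodes among passing cells. Python was 3.11.15 with numpy 2.4.6 and pandas 2.3.3. Some planned results are not reported here.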

Additional observations from a re-analysis of the deposited data

Results flagged for a closer look

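In CD8+ T cells the change with both antibodies differed between tumors with and without PancVAX for 7 of the genes described, by the interaction term of edgeR described above. The difference, as the change in PancVAX tumors minus the change without the vaccine on the log2 scale, was 3.66 for *Trbv19*, -2.80 for *Trbv12-1*, -1.95 for *Hspa1a*, -2.36 for *Hspa1b*, 1.27 for *Nr4a3*, 1.78 for *Rgcc*, and -2.04 for *Gzmc*. Of these genes, *Trbv19*, *Trbv12-1*, *Hspa1a*, *Hspa1b*, and *Rgcc* had already been called between both antibodies and isotype. That comparison is part of the difference, so for them the difference reuses the libraries that picked them and is not separate evidence. *Trbv19* and *Hspa1a* were at 102 and 123 CPM and at 14.4 and 22.7 CPM with isotype. With PancVAX and neither anti–PD-1 nor anti–CTLA-4 they were at 77.7 and 73.4 CPM and at 56.1 and 70.7 CPM.

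Seminal vesicle transcripts were found in a measurement that the comparisons leave out. Barcodes with at least 1% of UMIs from *Svs* genes numbered 17 in the whole-tumor library and 2 in the Percoll library of both antibodies, and 0 in every other library of the series. After their removal the 7 *Svs* genes still summed to 162 and 12.8 CPM in the macrophages of these libraries, against 0.00 in both isotype libraries. In the CD8+ T cells they summed to 129 and 13.2 CPM against 17.8 and 0.00 CPM. No *Svs* gene was called. The part of these transcripts in other results was not tested.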

How the results depend on the processing

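*Trbv19*, *Trbv12-1*, and *Trav3-3* in CD8+ T cells kept direction and call under all alternatives, none of which measured the spread of clones between mice. In CD8+ T cells 6 genes were called, 12 by DESeq2, 81 with no low-count filter, and 45 with only the 4 libraries, where those libraries alone set the spread. Without upper cell limits 7 were called and 3 of the 6 were shared, with *Hspa1a*, *Hspa1b*, and *Rgcc* lost. Leaving out 1 library gave 4–7, the lone library being assumed to vary like the other groups. Without the replicate block, which takes preparation as the pairing, 5 were called, and with *Hspa1a* and *Hspa1b* summed as 1 gene, 4 were. In macrophages 2 genes were called, 0–1 with a library left out, 0 at a mitochondrial limit of 5%, and 0 without the replicate block. The count was 14 without upper cell limits, 10 with C1q at 50 per 10000, 4 with no *Svs* filter, 4 with no UMI of *Cd3e*, *Cd3d*, or *Cd3g*, 4 by DESeq2, 25 with no low-count filter, and 62 with only the 4 libraries. The interaction in CD8+ T cells gave 12 genes, 3–12 with a library left out, 126 without upper limits, 7 at 5% mitochondrial UMIs, 23 with at least 2 UMIs of *Cd8a* or *Cd8b1*, 127 with no low-count filter, 27 with only its 8 libraries, and 2 without the replicate block. In macrophages it gave 0, also 0–0 with a library left out, and 67 without upper limits, 70 with C1q at 50, 2 with no hemoglobin filter, 7 with no T cell marker UMI, 16 by DESeq2, 63 with no low-count filter, and 5 with only its 8 libraries. The causes of these shifts were not tested.

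Mean share differences moved from 3.55 to 1.91 points without upper limits for CD8+ T cells, from 2.94 to 0.77 without upper limits and 1.67 at 5% mitochondrial UMIs for macrophages, and from 12.0 to 3.54 at equal cells for clones. The sign turned without upper limits for *Jun* (-0.12), *Ifit3* (0.84), and *Il2ra* (0.0646) in CD8+ T cells and *H2-DMa* (-0.063) in macrophages, at 5% mitochondrial UMIs for *Cd86* (-0.0088), and with a library left out for *Ctla4* (-0.12 to 0.024), *Pkm* (-0.32 to 0.022), *Cd86* (-0.058 to 0.18), and *Ctss* (-0.13 to 0.049), none called. Of 1257 single-gene values, 1165 kept direction and call, 45 lost a call, 38 gained one, and 9 turned. Most of these values belong to genes that were not called, which cannot lose a call. The call was lost in 8 of 15 alternatives for *Rgcc*, 7 of 16 for *Adam19*, 6 of 16 for *Ifitm1*, 3 of 15 for *Hspa1b*, and 1 of 15 for *Hspa1a*. The interactions of *Hspa1b* and *Gzmc* are not in the total, and the losses of the interactions are given above. At a 2-fold change 48.5% of CD8+ T cell and 56.5% of macrophage genes were recovered in simulation with 2 libraries a group. Of those above the median level, 76.5% and 88.2% were recovered. In the simulation genes of like level shared 1 spread, which real genes need not do. It therefore does not show how often differences of this size were missed in these data.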

Other observations

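The CD8+ T cell contigs of the other treatments give context for the V segments without a test, since each treatment has 1 library. TRBV20 was in 29 of 646 cells with both antibodies (4.49%), 16 of them with 1 junction, and in 12 of 234 isotype cells (5.13%), 7 of them with 1 junction. Among cells with a single β chain it was in 29 of 637 (4.55%) and 6 of 226 (2.65%), so the order of the treatments depended on cells with more than 1 β chain. In PancVAX plus both antibodies it was in 91 of 861 cells (10.6%), of which 78 had 1 junction. TRBV1 was in 14 of 646 cells with both antibodies and in 13 of 234 isotype cells. TRBV12-1 was in 29 of 578 cells with anti–CTLA-4 alone, 16 of them with 1 junction, and in 13 of 459 cells with anti–PD-1 alone, where all 13 junctions differed. At 226 cells the expected share of cells in clones of 2 or more was 62.6%–68.1% in the 4 treatments without PancVAX and 41.8%–46.9% in the 4 with it.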
